A study of Oncorhynchus mykiss with 8 samples.

Results

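On the salmonid array used to compare white muscle of large and small rainbow trout, the probe A_05_P478412, named max protein, and the probe A_05_P249334, named DNA-damage-inducible transcript 4-like protein, were 2 of 43603 probes. They were chosen by their measured log2 ratios on these arrays, which stood at the top of the Sept. lot's differences and ran close together, so their size effects are given here as a description, with no test. Both were higher in large than in small fish on all 8 arrays. In the Sept. lot the max protein probe was 5.61-fold and the transcript 4-like probe 5.14-fold higher in large fish, and in the Dec. lot they were 2.68-fold and 2.23-fold higher. The platform annotation places both probes on 1 transcript, LOC100136569, and the third probe of that transcript, A_05_P461137, did not follow them in the size of its lot means.

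The fish were rainbow trout (Oncorhynchus mykiss) of the Lyndon strain of 2 spawning lots, Sept. and Dec., all reared at 1 station and given no treatment, and the groups compared were the large and the small fish of a lot. Per the study's methods these were the largest and smallest immature fish of half-sib families sharing a sire, alike in age between the lots and fasted before sampling, and the muscle plug was cut below the dorsal fin with the skin removed. mRNA of 5 fish of a size class was pooled, a pool of large fish was hybridised against a pool of small fish, and the hybridisation was repeated with Alexa Fluor 555 and Alexa Fluor 647 exchanged. Each lot had 2 pool pairs on 4 arrays, and a swap repeats the same RNA, so n = 2 pool pairs per lot and SE is the standard error of limma's fit. A pool averages over its fish, so differences between single fish are not seen. Spawning season cannot be told apart from anything else that differed between the lots. Among such differences were the sire and the dams, the sampling date with its photoperiod, and the mean weights that the study gives for the large and the small pools. Values are log2(large/small), a direction that is likely, as 301 of 301 named Sept. listings and 665 of 665 named Dec. listings of the study then had the listed sign.

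MAX is a basic helix-loop-helix leucine zipper protein that binds DNA as the obligate partner of MYC, and it also pairs with the MXD and MXI1 proteins, which oppose MYC at the same sites. The network of these factors is known for its part in cell growth and proliferation. DDIT4L, also called REDD2, is known from mammals as a stress-inducible inhibitor of signalling through mTORC1, the kinase complex that promotes protein synthesis and muscle growth. The genes named by the array are the study's protein matches, and a list of the study marks the max protein probe as carrying another name from the array maker. Whether the probes read a transcript of MAX, of DDIT4L or of both was not tested, since no probe sequence was used here. The study also measured max protein by quantitative PCR in muscle of Sept. fish from its arrays. It reports a significant difference between small and large fish that bore out its array result. Whether those primers and the probe read the same transcript was not tested.

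Between 41909 and 43249 probes had a value on an array, and 38488 had one on all 8. The arrays' medians lay between -0.027 and 0.016, and their standard deviations between 0.29 and 0.60. A ratio of channels gives no level, so the tissue could not be checked against its defining markers, and fewer cells of a type cannot be told apart from less RNA per cell. At the study's threshold (unadjusted p up to 0.05 and at least 1.2-fold), 2.79% of probes passed in limma's test on the Sept. pool pairs and 14.1% on the Dec. pool pairs. For Dec. minus Sept. it was 9.05% (4.88% with the higher ratio in Dec. and 4.17% with the lower). None had a Benjamini-Hochberg adjusted p under 0.05 in either lot, against 1488 and 6048 at an unadjusted p up to 0.05. For Dec. minus Sept. these counts were 0 and 3483. The dye-swap fit with pool pair as a random effect gave 0 and 8 such probes, and the methods' t-test gave 0 in both. The random-effect fit used a correlation of -0.15 between the arrays of a pool pair. A negative value makes its standard errors smaller than for independent arrays.

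In the Sept. lot the max protein probe was at 2.06 and 2.41 in pool pair 1, with large fish in Alexa 555 and in Alexa 647. In pool pair 2 it was at 2.61 and 2.87, so all 4 arrays stood far above 0. The mean was 2.49 (SE 0.18, n = 2 pool pairs), the highest of 41524 probes measured in the lot.

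In the Dec. lot the same probe was at 2.41 and 0.92 in pool pair 1 and at 1.65 and 0.71 in pool pair 2, again with large fish in Alexa 555 first. The mean was 1.42 (SE 0.18, n = 2 pool pairs), rank 126 of 39770, between 2 probes with no name at 1.42. Over single arrays the lots overlapped, since the Dec. pair 1 array with large fish in Alexa 555 stood as high as a Sept. array. The pool pair means were 2.24 and 2.74 for Sept. and 1.67 and 1.18 for Dec. Of the 38488 probes with a value on every array, max protein had the highest lowest array, 0.71, with the ADP/ATP translocase 2 probe A_05_P276614 next at 0.43. In all, 208 probes (0.54%) were above 0 on every array and 187 (0.486%) below 0.

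The transcript 4-like probe was at 1.58 and 2.32 in Sept. pool pair 1 and at 2.63 and 2.91 in Sept. pool pair 2, with large fish in Alexa 555 first. The lot mean was 2.36 (SE 0.30, n = 2 pool pairs), rank 2 of 41524. The next probe in that order was ADP/ATP translocase 2 (A_05_P276614), a carrier that moves ATP out of mitochondria in exchange for ADP, at 2.00.

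In the Dec. lot the transcript 4-like probe was at 2.13 and 1.07 in pool pair 1 and at 1.28 and 0.14 in pool pair 2. The lowest of these, pair 2 with large fish in Alexa 647, was the lowest value of either probe, and 25.9% of probes on that array were as high. The lot mean was 1.15 (SE 0.30, n = 2 pool pairs), rank 254 of 39770, between probes named collagen type x alpha and adipose differentiation-related protein, both at 1.15. Its means were 1.95 and 2.77 in the Sept. pool pairs and 1.60 and 0.71 in the Dec. pool pairs. Both probes therefore had the same order of pool pairs, Sept. 2, Sept. 1, Dec. 1 and Dec. 2, an order that 5.86% of probes had.

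**Figure D1:**
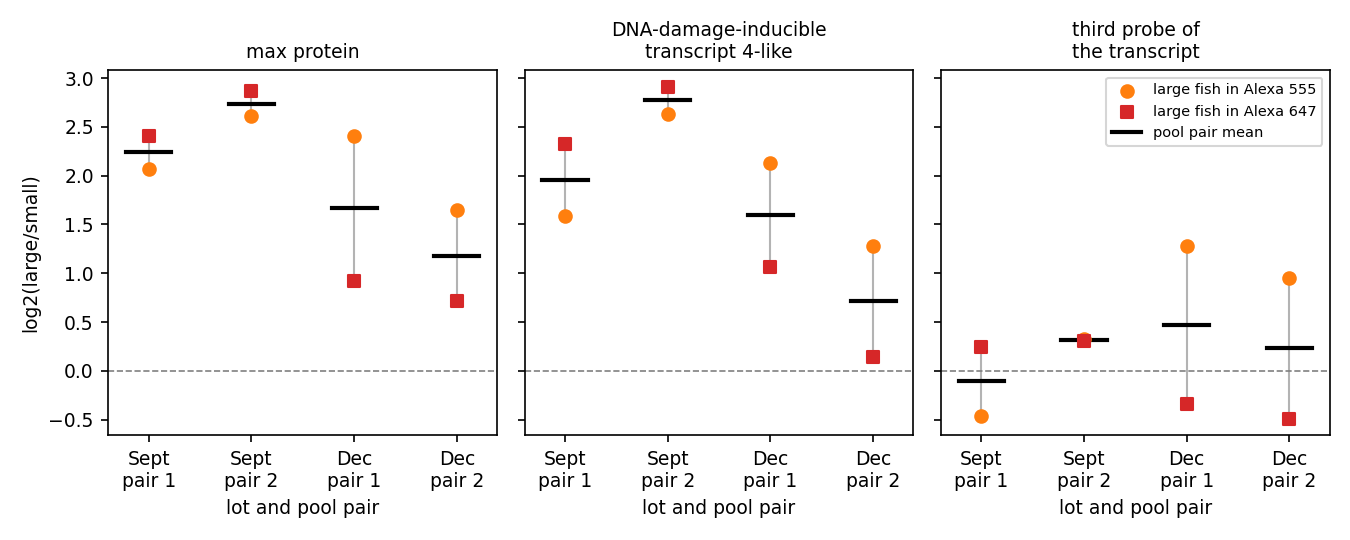
Each panel plots log2(large/small) on the vertical axis for the 4 pool pairs on the horizontal axis, for max protein, the transcript 4-like probe and the third probe of their transcript, with circles and squares for the dye orientations and a bar for the pool pair mean. Both members lie above 0 on all 8 arrays, between 0.14 and 2.91, while the third probe lies between -0.49 and 1.28.

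The dye orientation split the lots differently. With large fish in Alexa 555, max protein averaged 2.34 for Sept. and 2.03 for Dec., a difference of Dec. minus Sept. of -0.31. With large fish in Alexa 647 it averaged 2.64 and 0.82, a difference of -1.82. The gap between the lots thus lay mostly in 1 dye orientation, and 3.09% of probes had orientations at least as far apart. The transcript 4-like probe showed the same split, with differences of -0.40 and -2.01, and 2.48% of probes had orientations at least as far apart as that. For the ADP/ATP translocase 2 probe A_05_P276614 the differences were -0.26 and -1.78 (3.05% of probes as far apart). That probe lay near both members on every array, so its like split is not separate evidence. For the third probe of the transcript the differences were of opposite sign, 1.18 and -0.69 (1.3%).

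Within a pool pair, the array with large fish in Alexa 555 minus its swap gave -0.35 and -0.26 for max protein in the Sept. pairs and 1.49 and 0.94 in the Dec. pairs. For the transcript 4-like probe these swap gaps were -0.74 and -0.28 in the Sept. lot and 1.06 and 1.14 in the Dec. lot. The swap gaps of both probes were therefore below 0 in the Sept. pairs and above 0 in the Dec. pairs. That pattern was seen in 6.59% of probes, while 21.3% had gaps of 1 sign in all 4 pairs. The swap gap of max protein was matched or exceeded in size by 7.02% of probes in Dec. pair 1 and by 5.12% in Dec. pair 2, against 34.8% and 46.1% in the Sept. pairs. The third probe of the transcript had swap gaps of -0.71 and 0.02 in the Sept. pairs and 1.62 and 1.45 in the Dec. pairs. The part of the dyes in the difference between the lots was not tested.

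The probes ran together closely. Max protein minus the transcript 4-like probe was 0.48 and 0.09 in Sept. pool pair 1, -0.03 and -0.04 in Sept. pool pair 2, 0.28 and -0.15 in Dec. pool pair 1, and 0.37 and 0.57 in Dec. pool pair 2. The largest distance, 0.57, was on the array where the transcript 4-like probe was lowest. Over pool pair means the difference was 0.29 and -0.03 in the Sept. lot and 0.07 and 0.47 in the Dec. lot.

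Likeness was measured as the largest absolute difference on any of the 8 arrays, over the 38487 other probes with a value on each. By this measure each probe was the other's nearest, and the ADP/ATP translocase 2 probe A_05_P276614 was second for both, at 0.90 from max protein and 0.62 from the transcript 4-like probe. The beta-enolase-like isoform 1 probe, named for a glycolytic enzyme of muscle, was the third, at 1.82 and 1.52. The distance from the second to the third was larger than that from the first to the second. For max protein, cellular retinol binding protein followed at 1.91 and telethonin, a Z-disc protein that caps titin, at 1.94. For the transcript 4-like probe, putative lymphocyte G0/G1 switch protein 2 followed at 1.90 and transmembrane protein 100-like at 1.93. These distances are a description over 4 pool pairs, and the arrays of a pair share RNA.

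With the level of each lot taken out, the probes stayed close but neither was the other's nearest. When each lot's mean was removed from each probe, the largest distance between them was 0.42. Of 38487 other probes, 82 were then nearer to max protein than the transcript 4-like probe was. Nearer to the transcript 4-like probe than max protein were 7. On the arrays with large fish in Alexa 647 alone, and without Dec. pool pair 1, 1 probe was nearer to the transcript 4-like probe than max protein. By the root mean square difference over the arrays, 0.318, each was again the other's nearest.

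The second ADP/ATP translocase 2 probe, A_05_P421709, was below 0 on 7 of the 8 arrays and so ran against the first. Of the HIG1 domain family member 2a probes, named for a mitochondrial respiratory protein, A_05_P433247 lay between -0.23 and 3.16 on the 7 arrays with a value, and A_05_P368647 between -0.09 and 3.20 on 8. The latter was not among the 5 nearest of max protein or the transcript 4-like probe, and the former, lacking a value, was not ranked.

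**Figure D2:**
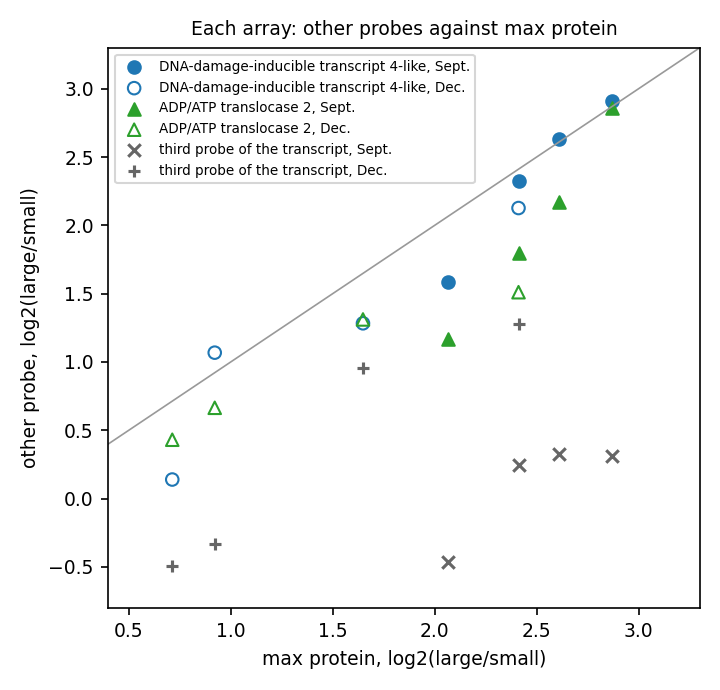
Each point is 1 array, with log2(large/small) of max protein on the horizontal axis and of another probe on the vertical axis, filled or crossed for Sept. and open or plus-shaped for Dec., and the line marks equal values. The transcript 4-like probe stays within 0.57 of the line and ADP/ATP translocase 2 within 0.90, while the third probe of the transcript lies up to 2.56 below it.

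The third probe of LOC100136569 was not used to choose the others. In the Sept. lot it was at -0.46 and 0.25 in pool pair 1 and at 0.33 and 0.31 in pool pair 2, and its mean of 0.11 (SE 0.14, n = 2 pool pairs) had an adjusted p of 0.9996 in limma's test. In the Dec. lot it was at 1.28 and -0.34 in pool pair 1 and at 0.95 and -0.49 in pool pair 2, above 0 with large fish in Alexa 555 and below 0 with large fish in Alexa 647. Its Dec. mean was 0.35 (SE 0.14, n = 2 pool pairs), with an adjusted p of 0.36. The Dec. minus Sept. difference was 0.25 (SE 0.20), with an adjusted p of 0.76. A miss of the threshold does not show that the probe is unchanged, but its largest distance was 2.56 from max protein and 2.60 from the transcript 4-like probe, both on Sept. arrays.

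The platform annotation gave 221 probes a symbol, and 38 other pairs of probes on all 8 arrays shared a transcript, over 23 symbols. Their largest distance had a median of 1.36 and ran from 0.27 to 3.58, and 2 of the 38 pairs were nearer than max protein and the transcript 4-like probe. Small ratios are near each other by size alone, so the root mean square difference was also divided by the root mean square of the pair's mean. That quotient was 0.158 for max protein with the transcript 4-like probe, and 1 of the 38 pairs, of LOC100136584, was lower at 0.129. The study names the probes of that pair hemoglobin subunit alpha and hemoglobin subunit beta-1. Probes placed on 1 platform transcript can thus carry the names of different genes. Max protein and the transcript 4-like probe were chosen for high ratios that ran close together. Their place among these pairs is therefore not independent evidence that they read 1 transcript. The quotient was 1.50 and 1.47 for the third probe with max protein and with the transcript 4-like probe, and the median of the 38 pairs was 1.50. Among 195 other pairs of probes that share a name in the study's lists, 29 were nearer and 3 had a lower quotient, with a median of 1.17. Most of those probes were listed from these same arrays.

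**Figure D3:**
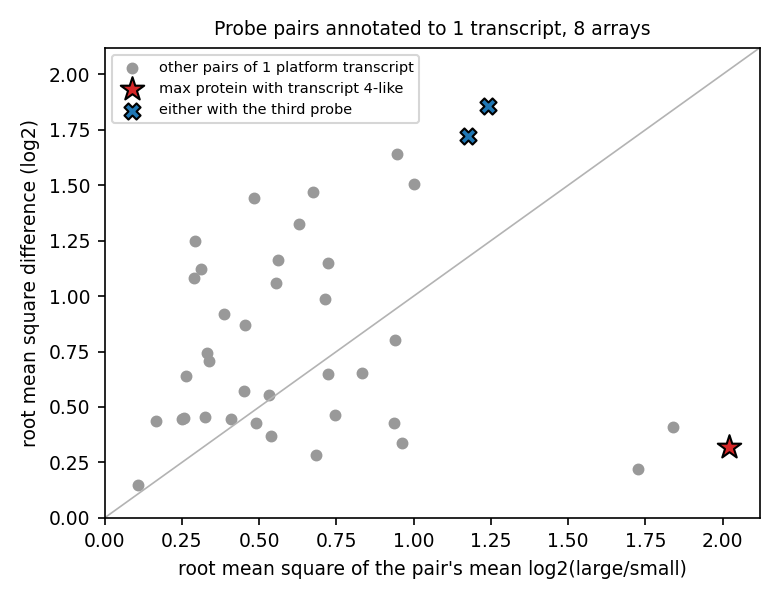
Each point is a pair of probes with 1 platform transcript, with the root mean square over 8 arrays of the pair's mean log2(large/small) on the horizontal axis, the root mean square of their difference on the vertical axis, and a line of equality. Max protein with the transcript 4-like probe stands at 2.02 and 0.318, far to the right and low, and both pairs with the third probe stand above the line.

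Other genes around both were taken by name, and the lists hold many probes that the study named because they differed on these arrays, so their direction is not independent evidence. For MAX-network and other basic helix-loop-helix factors, 11 probes besides max protein were measured. Their median was -0.24 for Sept. and 0.18 for Dec., against -0.005 and -0.012 over all probes. The Dec. median was 0.01 without Dec. pool pair 1 and 0.40 without Dec. pool pair 2. For Sept. 0 of 11 passed the study's threshold as higher in large fish (1.16% of all probes) and 1 as higher in small fish (1.63%). In the Dec. lot 4 passed as higher in large fish (6.54% of all probes) and 3 as higher in small fish (7.56%), and none had an adjusted p under 0.05 in either lot.

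The one named partner of MAX on the list, max-interacting protein 1 isoform a (MXI1, which opposes MYC), was at -0.02 (SE 0.10) in the Sept. lot and -0.40 (SE 0.10) in the Dec. lot, where it lay below 0 on 4 of 4 arrays and its adjusted p was 0.21. It thus lay on the side of small fish where max protein lay on that of large fish. The probe of mycbp2, a ubiquitin ligase that binds MYC, was at 0.35 (SE 0.20) and 0.85 (SE 0.20), with a Dec. adjusted p of 0.20. Neither reached the size of max protein in either lot.

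The myogenic factors, which turn on muscle genes, were all below 0 for Sept. and on both sides of 0 for Dec. Among Sept. fish myod1 was at -0.46, myod2 at -0.29, myoblast determination protein 2 at -0.26, mrf4 at -0.54 and myf5 at -0.04. In the Dec. lot they were at 0.33, 0.18, -0.52, -0.01 and -0.09, and myoblast determination protein 2 was the one that passed the study's threshold. The names myod2 and myoblast determination protein 2 may stand for the same gene, and their probes lay on opposite sides of 0 there. Of the inhibitors that bind basic helix-loop-helix factors without binding DNA, id-1 was at -0.24 for Sept. and 0.73 for Dec. and id-2 at -0.09 and -0.46, and both passed the study's threshold in the Dec. lot. The repressor named class e basic helix-loop-helix protein 40 was at 0.01 and 0.37, and transcription factor 25 at -0.50 and 0.42. The 2 probes whose Dec. minus Sept. difference was largest among these 11, id-1 at 0.97 (SE 0.17) and transcription factor 25 at 0.92 (SE 0.20), had an adjusted p of 0.48.

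For TOR, insulin and IGF signalling, the setting in which DDIT4L is known, 11 probes were measured, with a median of -0.03 for Sept. and -0.02 for Dec. For Sept. 1 passed the study's threshold in each direction, against 1.16% of all probes as higher in large and 1.63% as higher in small fish. For Dec. 0 passed as higher in large fish and 2 as higher in small fish, against 6.54% and 7.56% of all probes. These 2 were insulin-like growth factor I receptor at -0.63 (SE 0.11, adjusted p 0.17) and fk506-binding protein 1a, which forms a complex with rapamycin, at -0.61 (SE 0.18, adjusted p 0.26). Their Sept. values were 0.01 and -0.11. The growth hormone receptor ghr1 was at 0.13 and 0.49.

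Sestrin 1 is known as another stress-inducible inhibitor of mTORC1, and its probe A_05_P273169 passed in the Sept. lot at 0.33 (SE 0.10) and was at 0.11 in the Dec. lot. The other sestrin 1 probe was at -0.16 and -0.10. Eukaryotic translation initiation factor 4e type 2, a cap-binding protein, was at -0.41 (SE 0.08) in the Sept. lot, where it passed as higher in small fish, and -0.13 in the Dec. lot. The receptor's Dec. value was the largest in size on this list in either lot.

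For stress-inducible and early response genes, 27 probes besides the transcript 4-like probe were measured for Sept. and 28 for Dec.. Their median was -0.09 in the Sept. lot, where 0 passed the study's threshold as higher in large fish (1.16% of all probes) and 2 as higher in small fish (1.63%). It was 0.61 in the Dec. lot, where 15 of 28 passed as higher in large fish and 4 as higher in small fish, against 6.54% and 7.56% of all probes. None had an adjusted p under 0.05 in either lot. The study listed 23 of the 28 for muscle, and over the 5 it did not list the Dec. median was 0.22, with 2 passing as higher in large fish.

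The list's medians thus stood in the opposite order from that of the transcript 4-like probe, whose Sept. value was above its Dec. value. Butyrate response factor 1, which binds AU-rich mRNA, was at 0.17 (SE 0.18) in the Sept. lot and 1.83 (SE 0.18, adjusted p 0.17) in the Dec. lot. The jun-b probe A_05_P266894, for a subunit of the AP-1 transcription factor, was at -0.09 in the Sept. lot and at 1.91 (SE 0.47, adjusted p 0.21) in the Dec. lot. The growth arrest and DNA-damage beta probe A_05_P409552, named for a stress-inducible protein of the GADD45 family, was at -0.35 and 1.51 (SE 0.15, adjusted p 0.17). The other probe named gadd45 beta, A_05_P443342, added after its values were seen, was at -0.01 and 0.09 (SE 0.15). The Hsp90 probes A_05_P249734 and A_05_P409047, for a chaperone, were at -0.10 and -0.01 in the Sept. lot and at 1.30 and 1.25 in the Dec. lot. On the other side stood the mitochondrial 60 kda heat shock probe A_05_P424877, for a chaperonin, at -0.40 (SE 0.41) in the Sept. lot and -1.06 (SE 0.41, adjusted p 0.35) in the Dec. lot. Among the probes that passed in the Dec. lot as higher in small fish, and named after their values were seen, were the other 60 kda heat shock probe A_05_P257429 at -0.72 and both ccaat enhancer-binding protein zeta probes at -0.46 and -0.66.

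**Figure D4:**
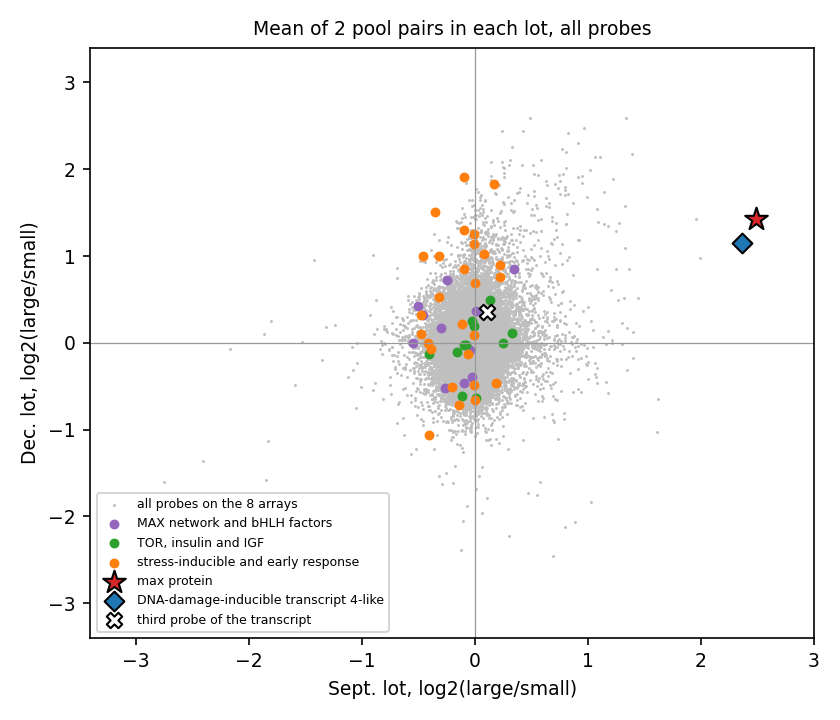
Each grey point is 1 of 38488 probes, with the mean log2(large/small) of the 2 Sept. pool pairs on the horizontal axis and of the 2 Dec. pool pairs on the vertical axis, and the gene lists are coloured. Max protein (2.49 and 1.42) and the transcript 4-like probe (2.36 and 1.15) stand to the right of all other probes, while the third probe of their transcript (0.11 and 0.35) lies inside the cloud.

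Named lists for plasma proteins, red blood cells, muscle fibres and skin are given over the pool pairs Sept. 1, Sept. 2, Dec. 1 and Dec. 2. Of 14 named probes for plasma proteins made in the liver, 7 were on all arrays, with medians of 0.79, 1.33, 0.36 and 2.98 and 7, 7, 5 and 7 above 0. The 10 hemoglobin probes, of red blood cells, had medians of 0.65, 0.72, 0.05 and 3.16, with 8, 10, 8 and 9 above 0. From Sept. 2 through Sept. 1 to Dec. 1 the medians of both lists fell, in the order of max protein and the transcript 4-like probe. In Dec. pool pair 2 both lists were highest, while those probes were lowest. The medians of both lists were above 0 in every pool pair. The study listed 7 of the plasma protein probes and 6 of the hemoglobin probes for muscle because they differed on these arrays. Their direction is therefore not independent evidence.

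The 4 of 5 slow muscle probes on all arrays had medians of 0.75, 0.02, -1.15 and -1.68, with 3, 2, 0 and 0 above 0, and were thus higher in the Sept. than in the Dec. pairs, as both probes were. The 11 fast muscle probes had medians of -0.15, -0.06, -0.36 and -0.63 with 4, 5, 4 and 3 above 0. The order of pool pairs was that of max protein, but these medians were below 0. Single fast muscle probes went both ways, from -3.56 in Sept. pool pair 1 to 1.63 in Dec. pool pair 1. The 2 keratin probes, of skin, were above 0 in every pair, with medians of 0.47, 0.38, 1.21 and 1.11. The study had likewise listed 4 slow muscle, 10 fast muscle and 2 keratin probes for muscle from these arrays. The part of the cells or tissues behind these lists in the size effects of max protein and the transcript 4-like probe was not tested.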

How the data were processed

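The authors scanned the 2-colour arrays (GenePix), flagged spots by hand and used GeneSpring GX to drop points of low channel ratio and to apply lowess, first within and then across arrays. What they deposited is 1 log2 channel ratio for each probe and array. Neither the numerator of the ratio nor whether the arrays' spread was scaled is given in the sources used here. Of 43663 rows, 60 were control features and were not used. Spot intensities were not analysed here, so precision is given only by the spread over pool pairs. In limma's SE that spread is pooled over both lots and drawn towards the spread of all probes. An SE can therefore be smaller than a lot's own 2 pool pairs would give, as it was for both members.

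All columns were negated to give log2(large/small). With the arrays of large fish in Alexa 647 turned back, 139 of 301 Sept. and 513 of 665 Dec. listings had the listed sign, against all of them without. Over all probes, the correlations between 2 arrays ran from -0.28 to 0.50. Names came from the study's lists (1308 probes) or the platform annotation (221 probes), of whose accessions 0 of 221 matched the trout annotation.

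Swapped arrays were averaged, and limma 3.58.1 (R 4.3.3; lmFit, eBayes) estimated each lot's mean from the pool pair means with 1 spread for both lots. Testing in a lot required values on all 4 arrays. Benjamini-Hochberg adjustment took in all probes tested, and the script was tested on simulated data. The p-values measure the spread between pool pairs, which holds array noise. The members and gene lists were chosen with earlier results of these data known. Named were both members, the 5 nearest probes of each, every probe of the MAX list, up to 6 of each other list with the largest absolute mean over the lots, the ADP/ATP translocase and HIG1 probes, and the neighbours in each lot's order. The third probe and the transcript pairs were looked at because of the annotation.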

Additional observations from a re-analysis of the deposited data

Results flagged for a closer look

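In the Sept. lot the third probe of the transcript, A_05_P461137, had 1 array apart from the other 3. Pool pair 1 with large fish in Alexa 555 stood at -0.46, the others between 0.25 and 0.33, and the gap was 0.898 of the whole range. Of 6 groups of 4 arrays looked at (3 probes in 2 lots), this was the one past Dixon's limit. Chance passes that limit in about 1 of 20 groups of independent values. The 4 arrays of a lot are 2 pool pairs hybridised in both dye orientations, so that rate need not hold here. Without Sept. pool pair 1 the lot mean of the probe was 0.32 and without Sept. pool pair 2 it was -0.11, so its Sept. direction rested on 1 pool pair. The max protein and transcript 4-like probes were also lowest on that array within the Sept. lot, at 2.06 and 1.58.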

How the results depend on the processing

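Of 128 recomputed values, 22 moved by at least the spread between pool pairs and 106 by less, a spread that is wide with 2 pool pairs. For counts the bound was on the ratio to the main count, and for the distance between the probes it was the spread over single arrays. Some of the 106 could not move. Leaving out 1 of 2 pool pairs always shifts a probe's lot mean by less than their spread. A list median of 1 lot does not change when a pool pair of the other lot is left out. The signs of the TOR list's Dec. median and of the third probe in both lots, none of them called, turned in some settings, and no called value turned. Max protein in the Dec. lot moved to 2.03 on arrays with large fish in Alexa 555 and 0.82 with Alexa 647. Leaving out a pool pair gave 2.24 to 2.74 and 1.18 to 1.67 for max protein in the Sept. and Dec. lots, and 1.95 to 2.77 and 0.71 to 1.60 for the transcript 4-like probe (0.71 without Dec. pair 1 against 1.15 with it). The largest distance between them was 0.48 to 0.57 without a pool pair, and the root mean square was 0.318. Probes at the study's threshold in the Sept. lot numbered 1158, and 1136 to 2078 without a pool pair (2078 without Sept. pair 1), and 369 by the methods' t-test on arrays. In the Dec. lot they numbered 5606, 4790 to 7018 without a pool pair, 3532 with arrays scaled to equal spread and 892 by the t-test. Probes at an adjusted p under 0.05 in the Dec. lot numbered 0, and 0 to 381 without a pool pair (381 without Dec. pair 1, where the remaining pair takes its spread from the Sept. lot), and 8 with a dye term. The transcript 4-like probe in the Dec. lot was at 1.70 with large fish in Alexa 555 and 0.60 with Alexa 647. The MAX list's median was -0.24 to -0.15 in the Sept. lot and 0.0148 to 0.40 in the Dec. lot without a pool pair (0.0148 without Dec. pair 1, 0.40 without Dec. pair 2). The TOR list's was -0.103 to -0.0254 in the Sept. lot and -0.0733 to -0.0215 in the Dec. lot, and -0.0186 with centred arrays in the Sept. lot. Over probes the study did not list for muscle it was -0.0151 and 0.0527. The stress list's median was -0.20 to -0.04 in the Sept. lot (-0.04 without Sept. pair 1, -0.20 without Sept. pair 2) and 0.52 to 0.61 in the Dec. lot without a pool pair, and -0.0104 and 0.22 over unlisted probes. For these the cause was not tested. Added after seeing the data, the third probe in the Dec. lot was at 1.12 with large fish in Alexa 555 and -0.41 with Alexa 647. With a replicate block, 0 probes had an adjusted p under 0.05 for Dec. minus Sept., as without it. The pool pair numbers are of different fish in each lot and did not pair them (correlation of deviations 0.07). Signal over background was not analysed here.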
